A study of Mus musculus with 2 samples.

Results

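The genes described here are 35 mouse genes that interferon induces in defence against viruses, read on 2 arrays of macrophages sorted from the lamina propria of the colon, the connective tissue under the gut epithelium. The members were listed by gene symbol, and the list was made with earlier results of these data known. Every probe set whose listed symbols include a member was taken, whatever its values. The guanylate-binding and immunity-related GTPases, IRF factors, Schlafen and PYHIN proteins were left out as families, apart from Ifi47, which is a member. The array annotation lists 35 probe sets for 34 of the 35 genes. Of these genes, 31 have a probe set of their own, among 19938 such genes in the series, and 3 (Isg15, Ifi47 and Oas1g) appear only on a probe set shared with another gene. Ifi44 has no probe set in the annotation used here and was not analysed.

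The control array held RNA of macrophages from mice given plain drinking water for 5 days. The DSS array held RNA of the same sorted population from mice given 3% (wt/vol) dextran sulfate sodium, a polymer that damages the colon lining and causes colitis, in the water over the same 5 days. Both populations carried CD45, the MHC class II molecule IAb, CD11b and F4/80 and lacked CD103. The labels give neither the strain and age of the mice nor how many stand behind an array. The design sets inflammatory against control macrophages, and with a single array for each group nothing measures replicate error. No test or p-value is given, and each difference compares these arrays. Any batch of hybridisation and the treatment cannot be told apart, and in sorted bulk RNA a change in the mix of cells and a change in RNA per cell cannot be told apart either.

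Interferons are secreted proteins that warn cells of infection. Type I interferons bind the IFNAR receptor, whose kinases JAK1 and TYK2 activate the transcription factor complex ISGF3, which contains STAT2 and IRF9 and binds the interferon-stimulated response element (ISRE) in the promoters of target genes. Interferon gamma signals through JAK1 and JAK2 to the gamma-activated site (GAS) in its target genes. The products sense viral RNA, degrade it, block its translation or starve viruses of nucleotides, and macrophages use many of them.

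Nearly all of these genes had higher signals on the DSS array. Signals are log2 values from RMA, a method that combines the probes of a set into 1 value, and a difference is DSS minus control, so that 1 stands for 2-fold. A gene was counted when its signal reached the array's median over 28939 probe sets on at least 1 array (5.70 on control, 5.62 on DSS), which 30 of the 31 genes did. Cmpk2 was under both medians. Of the 30 counted genes, 12 were at least 2-fold higher on the DSS array (3.99% of 11163 genes in the series were) and 0 were at least 2-fold lower (3.03% of all genes were). A higher signal of any size was found for 29 of the 30, against 46.4% of all genes. Bst2 alone was lower. The median difference was 0.91, with quartiles of 0.57 and 1.18, and over all genes it was -0.03.

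As a yardstick without replicates, the robust SD of the differences over all 11163 genes was 0.39. The pooled SD between probe sets of the same gene was 0.28, from 641 genes with 2 or more probe sets. It covers differences between probe sets and no replicate error, and each member has at most 1 probe set of its own. At a size of 1.5-fold, 21 of the 30 genes were higher on the DSS array, beside 9.85% of all genes. At 3-fold, only Zbp1 was, beside 1.64% of all genes. Between 0.5 and 1 lay 12 members, beside 8.38% of all genes, and between 1 and 1.5 lay 10, beside 2.12%. The genes nearest to the 2-fold size were Oas1a (1.02), Rsad2 (1.02) and Samhd1 (1.04) above it, and Dhx58 (0.95), Dtx3l (0.94) and Parp9 (0.92) below it.

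**Figure D1:**
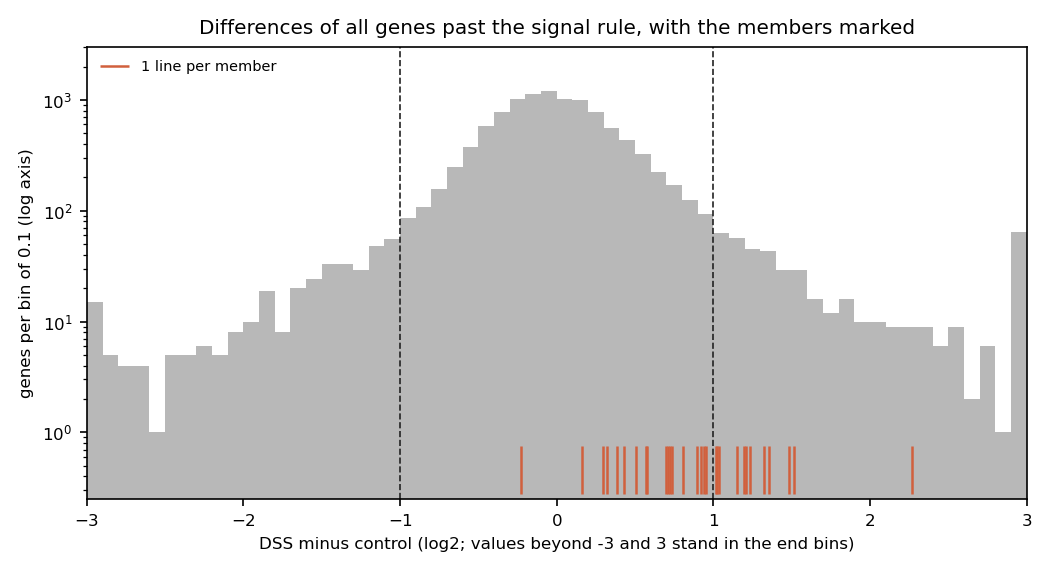
Histogram of DSS minus control (log2, horizontal axis) for 11163 genes past the signal rule, with the number of genes per bin on a log axis, dashed lines at 2-fold in each direction and 1 orange line for each of the 30 members. The member lines run from -0.23 to 2.27, and 29 of them lie to the right of 0.

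The promoters of the members with ISRE matches are shown because genes with large and with small differences hold the same core letters. The table of RefSeq promoter windows (assembly GRCm38.p6, 250 bases before to 50 after an annotated start) holds 33 windows for 26 of the 35 members. It has no entry for Mx1, Mx2, Oas2, Usp18, Rtp4, Dhx58, Zbp1, Parp9 and Parp14. The repeated core of the ISRE was searched as GAAANNGAA on both strands, and neighbouring matches may overlap each other. It occurred in 14 of the 26 members (53.8%) and in 9.76% of all 27025 genes with a window. By window it occurred in 14 of 33, against 8.56% of all windows. The GAS was searched as TTCNNNGAA, which reads the same on both strands, and occurred in 8 members (30.8%) against 9.55% of all genes. These 8 were Isg20, Ifit2, Oas1a, Ifi35, Bst2, Eif2ak2, Samhd1 and Adar.

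The sequences below are those of the 3 members with the largest and the 3 with the smallest absolute difference among members with an ISRE core. Each is read 5′ to 3′ in the direction of the gene, with the letters of ISRE core matches in capitals. The first 3 had differences of 1.71 (Isg15, shared probe set), 1.32 (Ifit1) and 1.23 (Eif2ak2). The other 3 had differences of 0.61 (Oas1g, shared probe set), 0.38 (Adar) and -0.23 (Bst2). Windows end at the base before the start, so that the core of Adar at position 34 after its start is not shown. The exception is the window of Eif2ak2, whose matches lie after it and are shown in a stretch of 30 bases.
Isg15 chr4:156200819-156201068 (- strand): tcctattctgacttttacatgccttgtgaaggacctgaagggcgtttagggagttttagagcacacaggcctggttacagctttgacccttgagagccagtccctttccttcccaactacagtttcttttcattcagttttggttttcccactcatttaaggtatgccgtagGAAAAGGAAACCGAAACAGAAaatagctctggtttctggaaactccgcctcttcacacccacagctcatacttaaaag
Ifit1 chr19:34640639-34640888 (+ strand): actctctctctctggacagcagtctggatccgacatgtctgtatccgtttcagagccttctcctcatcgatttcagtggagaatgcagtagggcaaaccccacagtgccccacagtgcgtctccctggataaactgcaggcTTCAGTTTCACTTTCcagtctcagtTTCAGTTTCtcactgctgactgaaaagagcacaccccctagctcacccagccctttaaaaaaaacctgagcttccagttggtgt
Eif2ak2 chr17:78882532-78882561 (- strand): ccgccggGAAAACGAAACAGAAgagaaccg
Oas1g chr5:120887614-120887863 (- strand): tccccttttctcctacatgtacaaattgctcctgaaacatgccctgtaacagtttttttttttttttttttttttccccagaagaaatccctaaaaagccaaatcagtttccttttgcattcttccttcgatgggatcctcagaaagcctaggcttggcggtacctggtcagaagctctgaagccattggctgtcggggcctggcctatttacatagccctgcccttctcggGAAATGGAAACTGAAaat
Adar chr3:89730468-89730717 (+ strand): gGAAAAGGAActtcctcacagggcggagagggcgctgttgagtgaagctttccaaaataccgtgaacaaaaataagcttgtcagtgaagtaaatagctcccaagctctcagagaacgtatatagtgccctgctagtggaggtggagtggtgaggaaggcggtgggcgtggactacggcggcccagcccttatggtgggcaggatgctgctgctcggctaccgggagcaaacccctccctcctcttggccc
Bst2 chr8:71537473-71537722 (- strand): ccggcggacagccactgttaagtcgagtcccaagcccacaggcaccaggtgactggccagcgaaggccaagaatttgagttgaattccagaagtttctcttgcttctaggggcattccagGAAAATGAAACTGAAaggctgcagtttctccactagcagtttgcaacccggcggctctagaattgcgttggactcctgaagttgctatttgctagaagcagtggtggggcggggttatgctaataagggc

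In Isg15, 3 overlapping cores had their first bases at positions -78, -72 and -66 from the start. In Ifit1, 3 cores on the opposite strand had theirs at -109, -103 and -84, of which the first pair overlaps. Bst2 also had 2 overlapping cores, at -130 and -124, although its signal was the only one lower on the DSS array. Among the 21 counted genes with a window, the 11 with an ISRE core had a median difference of 0.80, and 4 of them were 2-fold higher. The 10 without one had a median of 0.99, and 5 of them were 2-fold higher. Over all genes, 3.99% were at least 2-fold higher. Members without a window, whose differences ranged from 0.16 (Mx2) to 2.27 (Zbp1), are in neither group. The genes with these letters in the window did not have the larger median. A match is not evidence of binding, and its absence says only that these letters are not in this window.

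**Figure D2:**
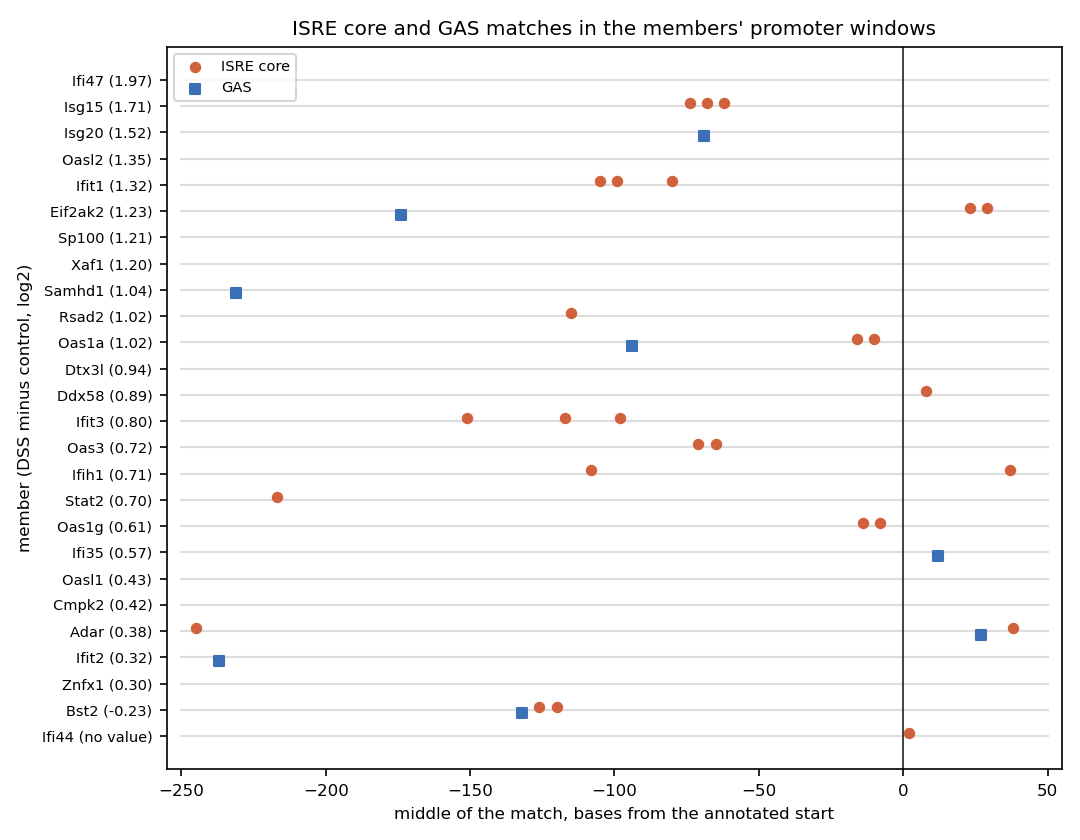
Position of ISRE core matches (orange circles) and GAS matches (blue squares) in the promoter windows of 26 members, in bases from the annotated start (vertical line), with each member's difference (DSS minus control, log2) after its name and members in order of it. ISRE core matches occur in Isg15 and Ifit1 near the top of that order and in Adar and Bst2 near its end, and windows of 1 gene with several starts are drawn on 1 line.

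The nucleic acid sensors held the member with the largest difference. Zbp1 (probe set 10490150), a sensor of Z-form nucleic acids that can trigger necroptosis, read 7.92 on the control and 10.19 on the DSS array, a difference of 2.27 or 4.82-fold. Of the 11163 genes, 98 had a larger difference. Eif2ak2, which encodes PKR, the kinase that stops translation when it binds double-stranded RNA, read 7.46 and 8.69, or 2.35-fold higher. The helicase genes lay lower in the order but in the same direction. Ddx58, which encodes RIG-I, read 8.67 and 9.57 (1.86-fold). Ifih1, which encodes MDA5, a sensor of long double-stranded RNA, read 9.66 and 10.37 (1.63-fold). Dhx58, which encodes LGP2, a helicase that modulates the signalling of the other two, read 6.74 and 7.69 (1.93-fold). The 5 sensors had a median difference of 0.95, and all 5 were higher on the DSS array.

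The oligoadenylate synthetases make short 2′-5′ linked chains of adenylate when they meet double-stranded RNA, and these chains activate RNase L. All 5 family members with a probe set of their own had higher signals on the DSS array, with a median difference of 0.74. Oasl2, a synthetase-like gene, differed most, at 8.37 on control and 9.73 on DSS (2.56-fold). Its neighbour on chromosome 5, Oasl1, read 7.03 and 7.46 (1.34-fold). Oas1a read 8.32 and 9.34 on its own probe set (2.02-fold), but 8.75 and 9.36 on a probe set shared with Oas1g (1.53-fold). The shared set is the only reading for Oas1g, and its value cannot be assigned to either gene. Oas2 and Oas3, neighbours on the same chromosome, had nearly equal differences. Oas2 read 8.04 and 8.77, a difference of 0.74. Oas3 read 5.18 and 5.90, a difference of 0.72, and it passed the signal rule only through its DSS signal, so its fold starts from a dim value that cannot be told from background.

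The IFIT proteins bind viral RNA and interfere with its translation. Their 3 genes lie close together on chromosome 19, and their differences spread from 0.32 to 1.32. Ifit1, which recognises RNA with an incomplete cap, read 6.90 on the control and 8.22 on the DSS array (2.50-fold). Ifit3 read 9.44 and 10.24 (1.75-fold), and Ifit2, its direct neighbour, read 8.97 and 9.29 (1.25-fold). The difference of Ifit2 was smaller than the robust SD over all genes. The Mx pair likewise differed in size. Mx1, which encodes a dynamin-like GTPase that restricts influenza virus in mice, read 6.54 and 7.68 (2.22-fold). Mx2 read 6.85 and 7.01 (1.12-fold), which is also within that SD. In the RefSeq annotation of the reference assembly, both Mx genes are transcribed pseudogenes, since common laboratory strains carry disabled copies.

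ISG15 is a small ubiquitin-like protein that is secreted and also attached to other proteins. The probe set that lists Isg15 together with Gm9706 (10451287) read 7.97 on control and 9.68 on DSS, which is 3.26-fold higher. Because the set is shared, the value cannot be assigned to Isg15 alone. Usp18, which removes ISG15 and dampens signalling at the IFNAR receptor, read 7.21 and 7.72 (1.42-fold). Among the enzymes that attach ISG15, which are not members, Herc6, the mouse ligase, read 8.76 and 9.88 (2.17-fold), and the activating enzyme gene Uba7 and the conjugating enzyme gene Ube2l6 had differences of 0.60 and 0.49.

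Enzymes of nucleotides and nucleic acids covered a wide range of differences. Isg20, an exonuclease of single-stranded RNA, read 6.79 on control and 8.31 on DSS (2.86-fold), the second highest value of the members with a probe set of their own. Samhd1, which depletes the deoxynucleotides that retroviruses need, read 11.13 and 12.17 (2.05-fold), with both values far above the array medians. Rsad2, which encodes viperin, an enzyme that makes a chain-terminating nucleotide, read 7.88 and 8.90 (2.03-fold). Cmpk2, a nucleotide kinase gene next to Rsad2 on chromosome 12, read 4.64 and 5.06 and was under the medians of both arrays, so the pair cannot be compared in size. Adar, the enzyme that edits adenosine in double-stranded RNA, read 7.19 and 7.57 (1.30-fold). Znfx1, a helicase-domain protein that binds viral RNA, read 7.58 and 7.87 (1.23-fold). The differences of Adar and Znfx1 were smaller than the robust SD of 0.39.

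Genes that act in signalling differed by similar amounts, with none at 2-fold. Stat2, the subunit of ISGF3 that is specific to type I and III interferons, read 7.99 on the control and 8.68 on the DSS array (1.62-fold). Parp9 and Dtx3l, which lie next to each other on chromosome 16 and encode partners in one ubiquitin ligase complex, had differences of 0.92 and 0.94. Parp9 read 7.26 and 8.18, and Dtx3l read 7.74 and 8.68. Parp14, an ADP-ribosyltransferase whose gene lies beside Dtx3l, read 9.28 and 9.86 (1.49-fold). The median of these 4 genes was 0.81.

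The remaining proteins act at membranes, in nuclear bodies or in ways less well known. Rtp4, a chaperone-like protein that also restrains viral replication, read 9.25 on control and 10.73 on DSS (2.79-fold). Sp100, a component of nuclear bodies that silence viral genomes, read 9.78 and 10.99 on its own probe set (2.31-fold), and 6.47 and 7.28 on a set shared with 4 other listed genes (1.76-fold). Xaf1, a pro-apoptotic factor, read 7.43 and 8.62 (2.29-fold). Ifi35, a leucine zipper protein that can be released as an inflammatory signal, read 6.82 and 7.39 (1.48-fold). The probe set that lists Ifi47, an interferon-inducible GTPase gene, together with Olfr56 (10375515) read 6.64 and 8.61, which is 3.92-fold higher and cannot be assigned to Ifi47 alone.

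Bst2, which encodes tetherin, a protein that holds budding virus at the cell surface, read 9.30 on the control and 9.06 on the DSS array, a difference of -0.23 or 1.17-fold lower. This is within the robust SD over all genes. Tetherin is also a surface marker of plasmacytoid dendritic cells, and markers of that cell type were examined beside it. Of the 6 counted genes of that list, 0 were at least 2-fold higher and 3 were at least 2-fold lower, beside 3.99% and 3.03% of all genes. Siglech, its defining lectin, read 7.66 and 6.22, Tcf4, its transcription factor, 9.60 and 8.54, and Cd209d 7.83 and 6.69. The other 3 (Ly6d, Cox6a2 and Bcl11a) had differences of 0.22, -0.13 and 0.07, and Ccr9 and Pacsin1 were under both medians. The summed signal of the 8 measured genes on the linear scale was 1521 on control and 874 on DSS. Tcf4 was the brightest of these genes on both arrays and so weighed most in both sums. The part of these cells in the value of Bst2 was not tested.

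**Figure D3:**
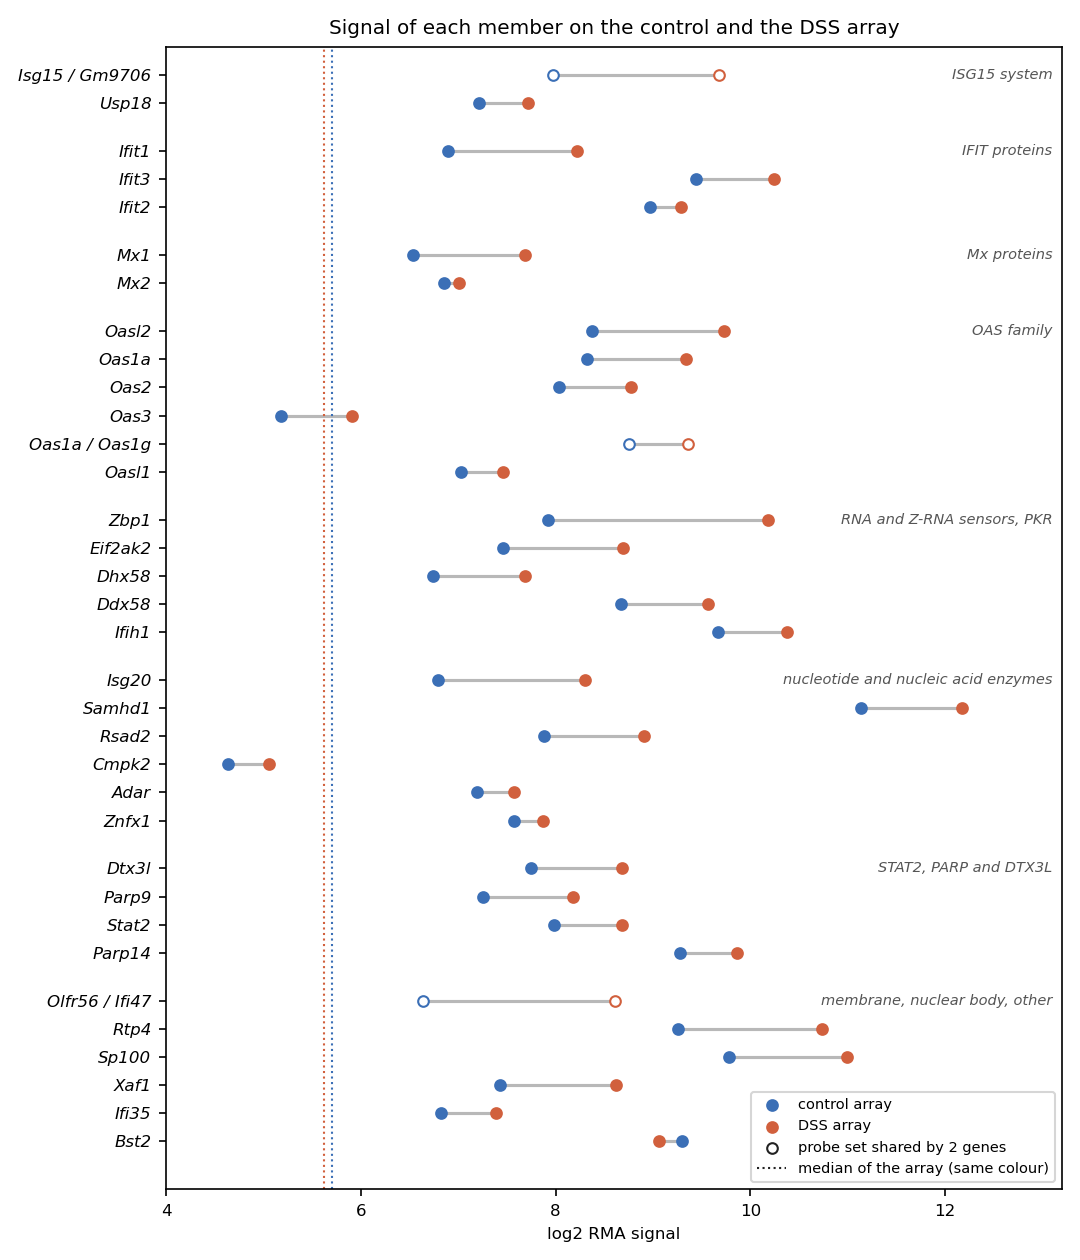
Log2 RMA signal (horizontal axis) of each member on the control array (blue) and the DSS array (orange), grouped by role and joined by a grey line, with open circles for probe sets shared by 2 genes and dotted lines at the array medians (5.70 and 5.62). The DSS point lies to the right of the control point for every gene drawn except Bst2, and Cmpk2 is to the left of both medians.

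The size of the difference did not follow how bright a gene was on the control array. Across the 30 counted members the correlation of control signal and difference was r = 0.00094, and over all 11163 genes it was -0.07, both as a description across genes that share the same 2 arrays. The control signals of the 30 members ranged from 5.18 to 11.13 with a median of 7.81, and the median over all genes was 7.25. Of the 30, all but Oas3 had a control signal at or above the array median.

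**Figure D4:**
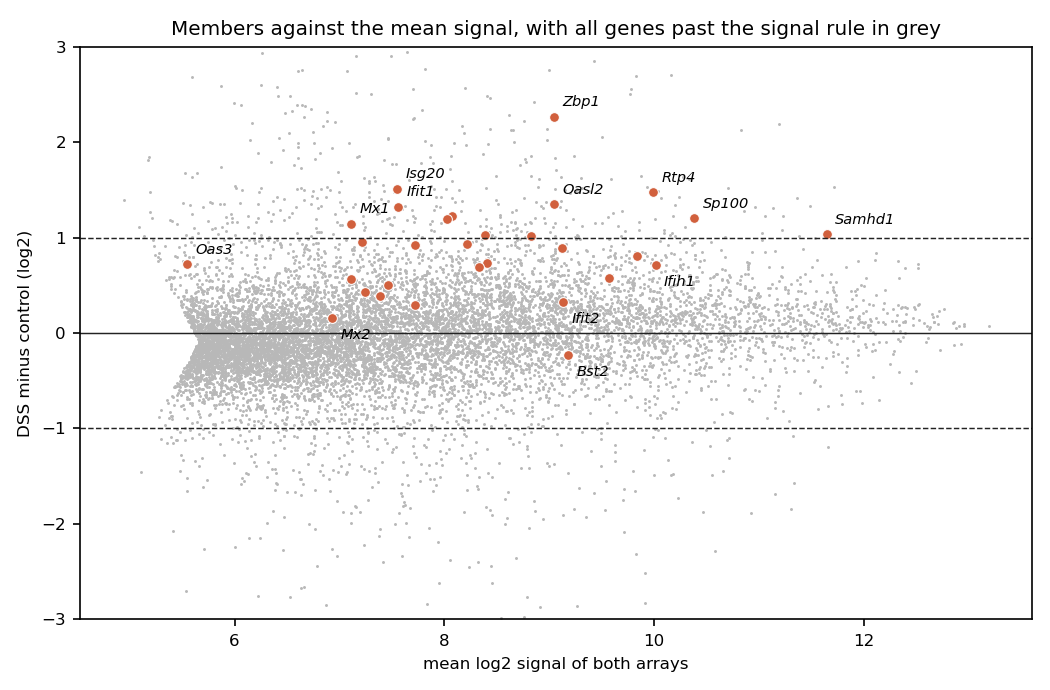
DSS minus control (log2, vertical axis) against the mean log2 signal of both arrays (horizontal axis), with the 30 members in orange, all other genes past the signal rule in grey and dashed lines at 2-fold. The members lie above 0 across the whole range of signals with the exception of Bst2, and 73 genes with differences beyond 3 in size are outside the frame.

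Genes around these members in the interferon pathway were described from lists. Of 10 measured interferon genes, 6 were under both medians, among them Ifng (5.29 and 5.50), Ifna2 and Ifna4, and 0 of the 4 counted ones were 2-fold apart, with a median of -0.07. Ifnb1 read 6.61 on the control and 6.51 on the DSS array, and Ifna5 read 7.30 and 7.27. Ifnk, the largest at 0.80, passed only through its DSS signal of 5.85, and Ifnl2 read 7.78 and 7.33. Receptor chains, kinases and the factor IRF9 had 1 of 9 genes at 2-fold and a median of 0.26. In that list Jak2, a kinase of the interferon gamma receptor, read 9.55 and 10.63 (2.12-fold), Irf9 read 7.52 and 8.15 (1.55-fold), and Il10rb and Ifngr1 had differences of -0.32 and 0.30. Ifnar1 and Ifnar2, the chains of the type I receptor, had differences of 0.26 and 0.08.

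Genes of the upstream sensing of nucleic acids varied in both directions, with a median of 0.20 over 12 counted genes. Of these, 1 was 2-fold higher and 0 were 2-fold lower, beside 3.99% and 3.03% of all genes. Irf7, the factor that drives interferon genes, read 6.42 on control and 8.05 on DSS (3.10-fold). Sting1, the adaptor of cytosolic DNA sensing, read 8.21 and 9.20 (1.99-fold), and Ikbke, a kinase of interferon induction, read 7.01 and 7.90 (1.85-fold). Mavs, the mitochondrial adaptor on which RIG-I and MDA5 rely, read 7.10 and 6.28 (1.77-fold lower), while the genes of both sensors were higher. Other interferon-stimulated genes outside the members had a median of 0.40. Of 26 such genes 25 were above 0, beside 46.4% of all genes. At least 2-fold higher were 3, beside 3.99%, and 0 were 2-fold lower, beside 3.03%. Nmi, a binding partner of IFI35, led at 9.53 and 10.95 (2.68-fold). Sp140, a relative of Sp100, and Herc6 followed with 2.23-fold and 2.17-fold, and Pml, the scaffold of the nuclear bodies that hold SP100, went the other way at 6.70 and 6.29.

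Genes known for induction by interferon gamma in macrophages had the highest median of the pathway lists, 1.70. Of 10 counted genes, 6 were at least 2-fold higher and 0 lower, beside 3.99% and 3.03% of all genes. Among the 6 were Gbp5 (2.57), Irgm1 (2.09) and Iigp1 (1.32), of the GTPase families left out of the members. Ciita (0.02) and Irf8 (-0.04) differed little, and Ido1 was under both medians. Upp1, a uridine phosphorylase, differed by 4.11 and Nos2, the inducible nitric oxide synthase, by 2.76, both from control signals under the array median. Cxcl9, a T cell attractant, read 8.81 and 11.52 (6.54-fold), and Socs1, a feedback inhibitor of the JAK kinases, lay furthest the other way at 6.97 and 6.71. When both arrays had to reach their medians, the median of this list was 1.08. Negative regulators of the pathway had 0 of 6 genes at 2-fold, beside the same shares of all genes, and a median of 0.30. Cish, Ptpn6 and Ptpn2 had differences of 0.64, 0.54 and 0.54, and Pias1 had one of -0.23. No difference between the lists was tested.

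Markers of several cell types, resident intestinal macrophages among them, also differed between the arrays. All 12 genes of the neutrophil list were at least 2-fold higher on the DSS array (3.99% of all genes were), with a median difference of 4.47. Their summed linear signal was 2009 on control and 33721 on DSS, and 5 of the 12 reached the median on control against 12 on DSS. Ly6g, the defining marker, read 4.04 and 10.01. The monocyte list had 5 of 6 genes at least 2-fold higher, 1 lower, and a summed signal of 4155 and 14996. The lower gene was F13a1 (11.41 on control and 9.53 on DSS), the brightest of the list on control. Chil3 passed the signal rule only through its DSS signal. The resident intestinal macrophage list had 6 of 12 genes at least 2-fold lower (3.03% of all genes were) and 0 higher, and its sum was 24749 and 10720. Among these genes, Vsig4 passed the signal rule only through its control signal. T and NK cell genes had Cd3d, Cd3e and Cd3g under both medians, and only 3 of their 9 measured genes were counted. Of these, 1 was at least 2-fold higher (Gzma, 4.69 and 6.37) and 2 were lower (Cd28, 8.29 and 5.45, and Cd2, 7.38 and 6.11). Gzma passed the signal rule only through its DSS signal and Cd28 only through its control signal. The sum was 660 and 395, and Cd28 and Cd2 were the brightest genes of the list on control. Epithelial genes had 0 of 3 counted genes at 2-fold and a sum of 471 and 509. No marker was at 0, since RMA gives every probe set a positive signal, and the part of these cells in the members' differences was not tested. The antigens of the sort were above the medians of both arrays (Ptprc, H2-Ab1, Itgam and Adgre1), and Itgae, which encodes the excluded CD103, was under both. The differences of the former were 0.40, 0.14, 0.60 and -0.82 in that order. Adgre1 is also in the resident intestinal macrophage list.

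**Figure D5:**
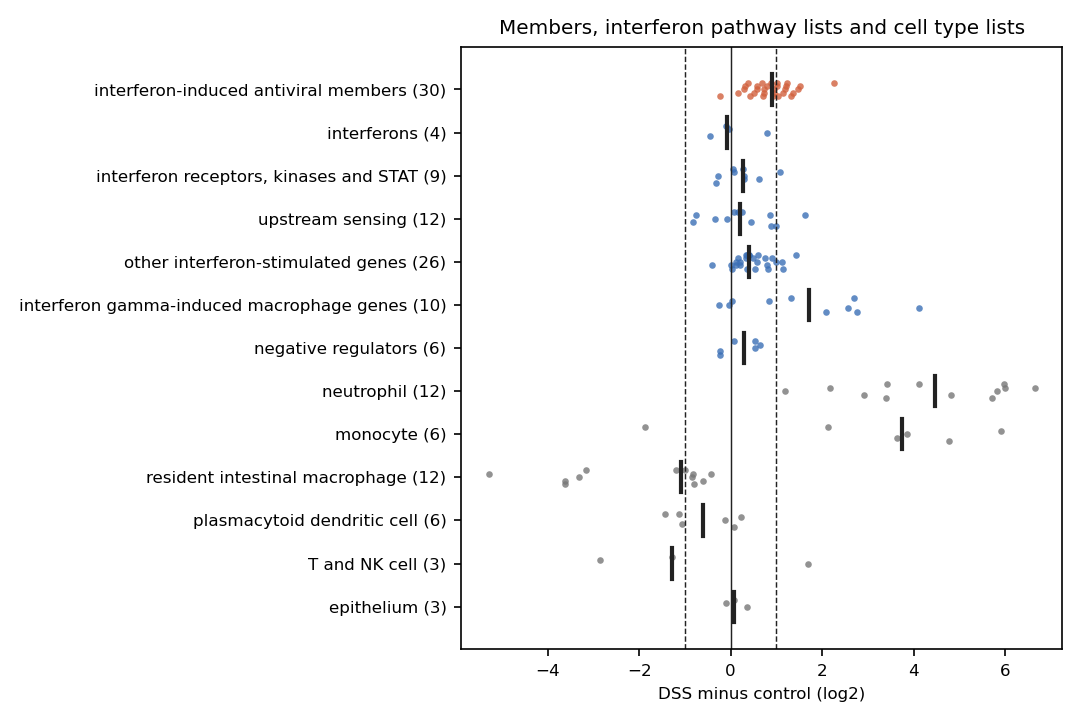
DSS minus control (log2, horizontal axis) for each counted gene (dots) of the members (orange), the interferon pathway lists (blue) and the cell type lists (grey), with black bars at list medians, dashed lines at 2-fold and the number of counted genes in brackets. The members' median is 0.91, that of the interferon genes -0.07, that of the interferon gamma-induced genes 1.70 and that of the neutrophil list 4.47.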

How the data were processed

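Gene expression was measured on 2 arrays, 1 for each treatment, from 100 ng of total RNA per array per the labels' protocols. The authors deposited log2 signals for 35556 probe sets, and RMA is named in the submitters' processing notes without a version. For its settings, the array design and the genome build, no statement was found in the labels. RMA shrinks differences of dim probe sets, and no detection calls come with the values.

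Values were used as deposited. Genes were named from the platform annotation (21789 probe sets with 1 symbol, 1621 with several, 12146 not listed). A gene took its probe set with 1 symbol and the highest mean signal, and shared sets are given apart. Array medians left out 6617 probe sets with identifiers under the lowest listed one and kept the other 28939, listed or not. Members, lists, the 2-fold size and the rule for named genes (all members, and for each pathway list the 3 largest differences and the furthest the other way) were chosen with earlier results of these data known. Other genes named in pathway and cell type lists were chosen after their values were seen. Of 146 list entries, 13 had no probe set of their own and were left out. There are 2 arrays in all, so their number limits the precision. The steps were tested on simulated data, with added changes larger than the differences of all members but Zbp1. Counts near the 2-fold size were not tested in this way. Python 3.11.15, numpy 2.4.6, pandas 2.3.3, statsmodels 0.14.6 and matplotlib 3.10.9 were used. Alternatives covered centring, probe set choice, the signal rule, a floor and the size counted.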

Additional observations from a re-analysis of the deposited data

How the results depend on the processing

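The count of 12 members at least 2-fold higher, beside 3.99% of all genes, was 15 with arrays centred on their medians, beside 4.68%. This brings in Dhx58, Parp9 and Dtx3l. The count was 9 under loess centring (span 0.4), beside 4.04% of all genes, which leaves out Oas1a, Rsad2 and Samhd1. Median centring moved the median of all genes from -0.03 to 0.05. With shared probe sets used, where Oas1a read 0.61, the count was 13 of 33, beside 3.99% of all genes. It was 12 under the floor and the averaged probe sets, each beside 3.99%. Without a signal rule it was 12 of 31, beside 2.25%, and with the rule on both arrays 12 of 29, beside 3.29%. The count was 21 at 1.5-fold (9.85% of all genes) and 1 at 3-fold (1.64%). The count of lower members was 0 and the median between 0.86 and 0.99 in each of these settings, the mean was 0.87, and Bst2 stayed the only member below 0. For single members, 154 of 155 alternative values moved by less than 0.28, but most of these had little or no room to move. Averaging and the floor left every member's value as it was, and median centring shifted all members by the same amount. The use of shared probe sets changed Oas1a alone. Only loess centring could move each member by its own amount. Among the other lists, the upstream sensing list had 2 genes higher under median centring and the receptor list 0 under loess centring. Without a signal rule the median of the interferon gamma list was 1.32, that of the plasmacytoid list -0.10 and that of the T and NK list 0.20, reversed from -1.27. With the rule on both arrays the interferon gamma list had a median of 1.08, the neutrophil list 3.39 with 5 genes higher, and the T and NK list 0 higher and 1 lower; fewer genes are counted under that rule. No paired analysis was possible because each group has 1 array, and no array could be left out. Among the members, dim signals limit Oas3 and Cmpk2, which were under the median on 1 and on both arrays.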
